A study of Mus musculus with 30 samples.

Results

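The genes described here encode the coat proteins of the lipid droplet and the enzymes and regulators that empty it. They were chosen from a list of names, as 4 perilipins (Plin1, Plin2, Plin3 and Plin4), the droplet fusion protein Cidec, 3 lipases (Pnpla2, Lipe and Mgll), the lipase activator Abhd5 and the lipase inhibitor G0s2. These are 10 of the 23109 genes or unnamed transcripts in the tables, and all 10 were found and tested. Their messages were followed by RNA sequencing of brown preadipocytes as these cells turned into adipocytes in culture, with and without the glucocorticoid receptor.

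All 8 libraries came from preadipocytes of interscapular brown fat of newborn C57BL/6J mouse pups. In every group both copies of the receptor gene Nr3c1 carried loxP sites (GR f/f), and SV40T had immortalised the cells. The Vec groups received an empty retrovirus and keep the receptor, and the Cre groups received a retrovirus with Cre recombinase, which deletes it (GR KO). Cells were plated 4 days before induction. Libraries were taken before induction (D0), after 4 hours of the induction mix (4h), and at days 2 and 7 (D2 and D7). Per the labels the mix held 0.02 µM insulin, 1 nM T3 (a thyroid hormone), 0.5 mM IBMX (which keeps cAMP from being broken down), 2 µg/ml dexamethasone (a ligand of the receptor) and 0.125 mM indomethacin, and was given for 4 hours. For the media used after that, the sources used here give nothing. Each genotype at each time is 1 library, the labels do not say how many pups or infections stand behind the line, and no uninduced culture was sequenced after D0, so what the mix does and what time in culture does cannot be told apart.

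Fat cells store triglyceride in droplets whose surface is covered by perilipins. Plin2 and Plin3 are made in most cell types, whereas Plin1 and Plin4 belong mainly to adipocytes, and Cidec lets droplets merge and grow. Lipolysis runs in steps: Pnpla2 (also called ATGL) takes the first fatty acid from triglyceride, Lipe (hormone-sensitive lipase) acts next on diglyceride, and Mgll splits the last monoglyceride. Abhd5 (CGI-58) activates Pnpla2 and is held by Plin1 until adrenergic signals release it, while G0s2 binds and inhibits Pnpla2. In brown fat the freed fatty acids are fuel and signal for heat production.

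Promoter stretches of 3 genes are printed because their genes followed different courses: Plin1 and Pnpla2 were nearly silent or low before induction and were highest at D7, and Plin3 was highest at D0. They are RefSeq sequence of assembly GRCm38.p6, on the strand of the gene, and they end where the annotated gene span begins. Plin1 is on the minus strand at chr7:79732905-79733026, Pnpla2 on the plus strand at chr7:141454938-141455187, and Plin3 on the minus strand at chr17:56290512-56290761. Capitals mark TTGCNNAA, a form of the C/EBP site, in Plin1, and CCAAT read on the other strand in Plin3.

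Plin1: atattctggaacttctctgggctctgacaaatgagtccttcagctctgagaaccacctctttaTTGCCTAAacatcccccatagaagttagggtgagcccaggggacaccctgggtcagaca

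Pnpla2: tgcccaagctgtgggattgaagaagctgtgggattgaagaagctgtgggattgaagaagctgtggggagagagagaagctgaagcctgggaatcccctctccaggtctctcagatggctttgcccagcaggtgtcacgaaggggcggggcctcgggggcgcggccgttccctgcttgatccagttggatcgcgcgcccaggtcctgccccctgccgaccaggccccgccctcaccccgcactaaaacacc

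Plin3: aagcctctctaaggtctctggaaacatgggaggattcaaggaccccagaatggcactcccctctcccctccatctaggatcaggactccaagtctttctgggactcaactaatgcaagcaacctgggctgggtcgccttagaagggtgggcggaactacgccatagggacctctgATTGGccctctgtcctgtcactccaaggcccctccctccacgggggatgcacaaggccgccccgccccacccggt

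In all, 6 motifs were searched on both strands in the 250 bases before each start site, over 13 windows of the 10 genes and 32851 windows of all genes. TTGCNNAA lay in 2 of the 13 windows, those of Plin1 and of a second start of Cidec, and in 9.56% of all windows. In Plin1 it began 187 bases before the start site, and again 58 bases before it in a part not printed. CCAAT lay in 3 windows (Plin2, Plin3 and Plin4) and in 33.8% of all, and ACANNNTGT, a loose form of the receptor's own site, in 1 window of Lipe and in 5.84% of all. No window of these genes held TGACGT (in 6.47% of all windows), TATAAA (12.4%) or a direct repeat of AGGTCA with 1 base between (0.0335%). The matches in these genes lie in different windows or apart, so none overlaps another, and they describe letters only.

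The libraries held 7.7 to 28.9 M reads, least at 4h (12.3 M in Vec and 7.7 M in Cre). Nr3c1 stood at 12.9 to 32.1 RPKM in Vec and 4.04 to 8.07 in Cre (RPKM is reads scaled to transcript length and library total), so the Cre libraries held 19.8% to 37.9% of the Vec level at the same time. Its reads are counted over the whole transcript, and what the remaining reads in Cre come from was not tested. The labelled cell type was checked by markers. Summed over 6 adipocyte markers (Pparg, Cebpa, Fabp4, Adipoq, Lpl and Cfd), the RPKM was 51.3 in Vec and 52.5 in Cre at D0, 94.2 and 80.3 at 4h, 2257 and 2031 at D2, and 6440 and 2553 at D7. Summed over 5 preadipocyte and fibroblast markers it was 2196 and 2222 at D0, 376.8 and 871.7 at D2, and 1262 and 2244 at D7. Ucp1, the uncoupling protein that defines brown fat, reached at most 0.882 RPKM, at 22 reads in Vec D7. The 6 brown adipocyte markers (Ucp1, Cidea, Prdm16, Ebf2, Cox8b and Cox7a1) together summed to 11.0 in Vec and 10.3 in Cre at D0 and to 113.4 and 57.3 at D7, most of it Cox8b (49.7 and 41.3) and, in Vec, Cox7a1 (41.2, against 4.98 in Cre). Macrophage markers summed to 0.0894 to 0.32 and endothelial markers to 0.185 to 1.65, with Ptprc, Adgre1 and Myf5 at 0 or 1 read in every library. Skeletal muscle markers summed to 3.01 to 22.1, most of it Acta1. Common scaling factors moved Vec 4h by -0.116 on the log2 scale (TMM) or -0.119 (median of ratios), and no other library by over 0.1.

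From 4h to D2, 9 of the 10 messages rose and none fell, and Plin3 alone did not pass. The test was edgeR's quasi-likelihood test on read counts, in a model that adds a genotype effect to a time effect over the 8 libraries, with Benjamini-Hochberg adjustment over all 12581 genes tested and a threshold of 0.05. Of all genes tested, 15.4% passed as higher at D2 than at 4h and 18.0% as lower. The median change of the 10 genes was 4.64 on the log2 scale, beside 0.0014 over all genes. Because each group holds 1 library, the error in this test is the departure from a common time course in both genotypes, and its p-values do not measure the spread between independent cultures.

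In the first 4 hours the changes of members that passed were downward. By the test Plin3, Plin4 and Cidec fell and none of the 10 rose, where 13.1% of all genes passed as lower and 12.2% as higher. On reads Mgll was 1.97-fold and Abhd5 1.38-fold higher at 4h than at D0 in Vec, but at 0.667 and 0.938 in Cre. Without Vec D0 no gene at all passed. Without Cre D0 or Vec 4h most of these falls, and most of the changes in other genes, lost the threshold. With any 1 library left out, the fitted fall ran from -1.32 to -0.85 for Plin3 on the log2 scale. It ran from -2.39 to -1.67 for Plin4 and from -7.92 to -6.61 for Cidec. The size for Cidec rests on 0 reads in both 4h libraries, after 21 reads in Vec D0 and 20 in Cre D0. From D2 to D7, Plin3 and Plin4 rose and Abhd5 fell, where 15.4% of all genes passed as higher and 8.93% as lower. Without Vec D2 or without Cre D2 these changes lost the threshold, as did many of the changes in other genes. Of the fits with a library left out, that without Cre D7 gave the highest fitted change for each of the 10. It was 2.90 for Plin1, 2.69 for Plin4, 1.61 for Pnpla2 and 1.33 for Cidec, and -0.81 for Abhd5.

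Over the whole course from D0 to D7, 8 of the 10 rose (all but Plin2 and Plin3) and none fell, where 5.68% of all genes passed as higher and 2.42% as lower. Their median change was 4.86, beside 0.0064 over all genes. That comparison leans on the day 0 libraries. Without Vec D0 no member and no other gene passed, and without Cre D0 most of both lost the threshold. From D0 to D2, 8 rose and Plin3 fell, where 17.7% of all genes passed as higher and 21.0% as lower. The median change was 4.31, beside 0.016 over all genes.

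**Figure D1:**
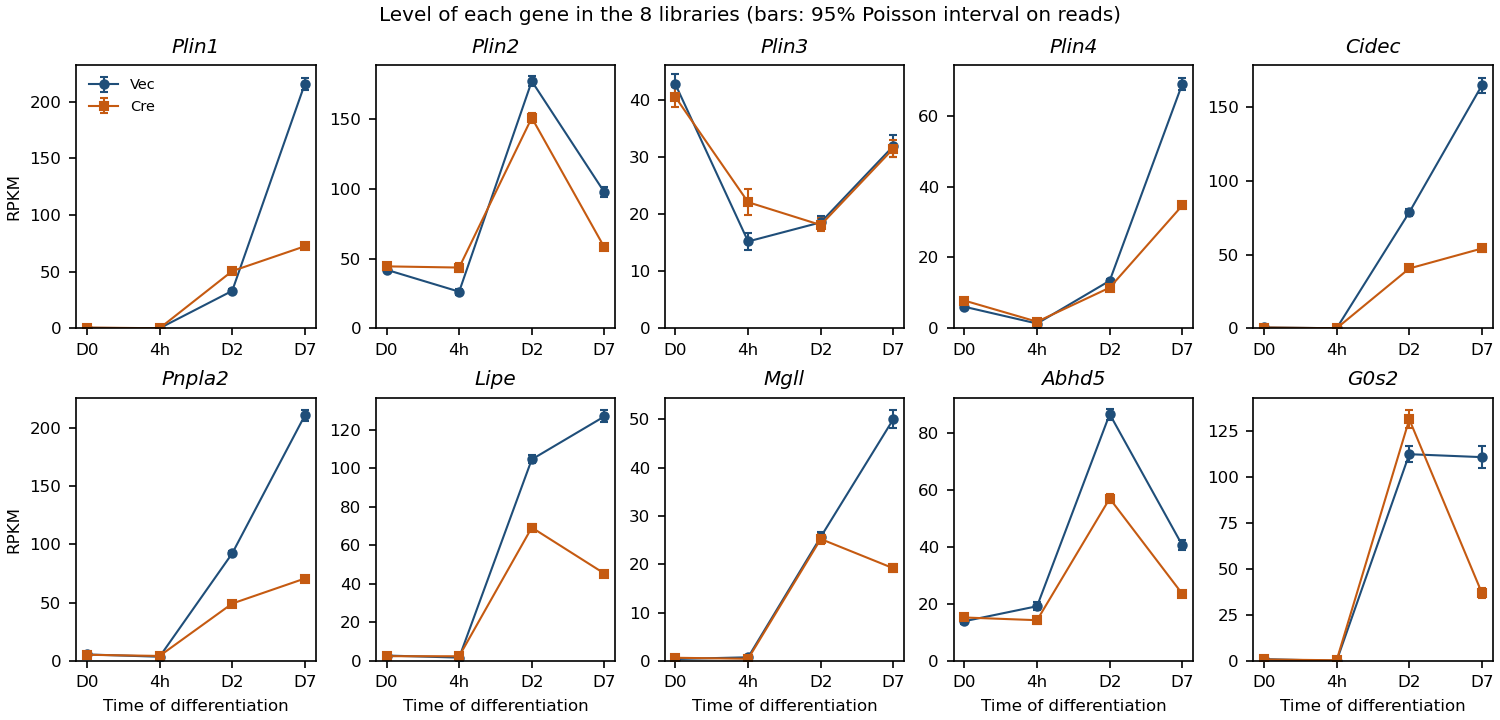
RPKM of each of the 10 genes (vertical axes, each panel with its own scale from 0) at D0, 4h, D2 and D7 (horizontal axis, times evenly spaced and not to scale) in Vec (blue circles) and Cre (orange squares), 1 library per point, with bars for the 95% exact Poisson interval on reads. Plin1, Plin4, Cidec and Pnpla2 were highest at D7 in both genotypes, Plin2 and Abhd5 at D2, and Plin3 at D0. G0s2 was highest at D2 in Cre, and in Vec its bars at D2 and D7 overlap.

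Plin2, the perilipin that coats droplets in most cells, was present from the start. Its RPKM was 42.0 in Vec and 44.5 in Cre at D0, 26.3 and 43.6 at 4h, 177.5 and 151.2 at D2, and 97.7 and 58.1 at D7. It rose from 4h to D2 by 2.12 on the log2 scale (SE 0.32, edgeR adjusted p = 0.0077), which was 6.75-fold in Vec (95% exact interval on reads 6.22 to 7.34) and 3.47-fold in Cre (3.20 to 3.77). Both libraries at D2 stood above all 6 others. By D7 its level was 0.55 of that at D2 in Vec and 0.384 in Cre, a change of -0.95 that did not pass (SE 0.31, adjusted p = 0.0746). The same change passed with DESeq2 (adjusted p = 0.0184), with limma on log2(RPKM + 1) (0.0475), without a filter on low values (0.0472), and without Vec 4h (0.0431), Cre 4h (0.0436) or Vec D7 (0.0478). The rise from D0 to D2, of 1.90, was lost without Vec D0 (adjusted p = 0.0875).

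Plin3, a perilipin of the cytosol that moves to nascent droplets, was the one member that did not gain with differentiation. Its RPKM was 42.7 in Vec and 40.4 in Cre at D0, 15.2 and 22.1 at 4h, 18.5 and 18.1 at D2, and 31.9 and 31.5 at D7. The D0 libraries were the highest and both genotypes were lowest at 4h or D2. It fell from D0 to 4h by 1.08 on the log2 scale (SE 0.16, edgeR adjusted p = 0.0108), had a change of -1.21 from D0 to D2 (SE 0.15, adjusted p = 0.0045), and rose from D2 to D7 by 0.92 (SE 0.15, adjusted p = 0.0129). At D7 it did not differ from D0 by the test (-0.29, adjusted p = 0.252). The fall at 4h lost the threshold without Vec D0 (a fitted change of -0.99) and without Vec 4h (-0.85). The later rise lost it without Vec D2 (0.93), Cre D2 (0.81) or Vec D7 (0.84). Other genes lost the threshold in these fits as well.

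Plin1, the main coat protein of the adipocyte droplet, was close to silent before differentiation. It had 15 reads in Vec D0 and 28 in Cre D0, and 0 reads in both 4h libraries, which at a floor of 3 reads allows up to 0.128 RPKM (Vec) and 0.203 RPKM (Cre). At D2 its RPKM was 33.0 in Vec and 50.5 in Cre, and at D7 it was 215.8 (95% exact Poisson interval 210.5 to 221.2) and 72.4 (70.0 to 74.9). The D7 libraries were the highest of their genotype, and at D2 the Cre library was above the Vec library. Against the floor, D2 was higher than 4h by at least 258.5-fold (Vec) and at least 248.5-fold (Cre), and the rise passed (adjusted p = 0.0066 in edgeR). From D0 to D7 its level was 647.7-fold higher in Vec (392.4 to 1158) and 119.4-fold higher in Cre (82.5 to 180). The fitted rise was 8.29 (SE 0.84, adjusted p = 0.0150), and was lost without Vec D0 (adjusted p = 0.182) or Cre D0 (0.0761). The rise from D0 to D2, of 6.46 (SE 0.79, adjusted p = 0.0059), was lost without Vec D0 (0.0608). The change from D2 to D7, of 1.83, did not pass (adjusted p = 0.0951) unless Cre D7 was left out (0.0095).

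Plin4, a long perilipin of fat and muscle, had an intermediate course. Its RPKM was 6.07 in Vec and 7.82 in Cre at D0, 1.33 and 1.85 at 4h, 13.4 and 11.5 at D2, and 69.0 and 34.7 at D7. Within each genotype 4h was lowest and D7 highest. It fell by 2.05 on the log2 scale from D0 to 4h (SE 0.38, edgeR adjusted p = 0.0175), rose by 2.85 from 4h to D2 (SE 0.38, adjusted p = 0.0059) and rose by 2.17 from D2 to D7 (SE 0.35, adjusted p = 0.0123). At D2 it stood 0.80 above D0, which did not pass (adjusted p = 0.113), although it did without Vec D7 (0.0208) or Cre D7 (0.0218). The fall at 4h lost the threshold without Vec D0 (a fitted change of -2.38), Cre D0 (-1.67) or Vec 4h (-1.75). The last rise lost it without Vec D2 (2.16) or Cre D2 (2.09). Other genes lost the threshold in these fits as well. The rise from D0 to D7, of 2.97 (adjusted p = 0.0150), was lost without Vec D0 (0.172) or Cre D0 (0.0636).

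The make-up of the perilipin messages changed with time. Their summed RPKM was 91.1 in Vec and 93.3 in Cre at D0, 42.8 and 67.5 at 4h, 242.5 and 231.2 at D2, and 414.4 and 196.6 at D7. Plin2 and Plin3 made up 46.1% and 46.8% of the sum in Vec D0 and 47.6% and 43.3% in Cre D0. At D2 the largest share was that of Plin2, at 73.2% in Vec and 65.4% in Cre. At D7 it was that of Plin1, at 52.1% in Vec and 36.8% in Cre, where Plin2 had 23.6% and 29.5%. The ratio of Plin1 to Plin2, in RPKM, was 0.186 in Vec D2 and 0.334 in Cre D2, and 2.21 in Vec D7 and 1.25 in Cre D7. Plin1 thus exceeded Plin2 in RPKM at D7 in both genotypes and at no earlier time in either.

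**Figure D2:**
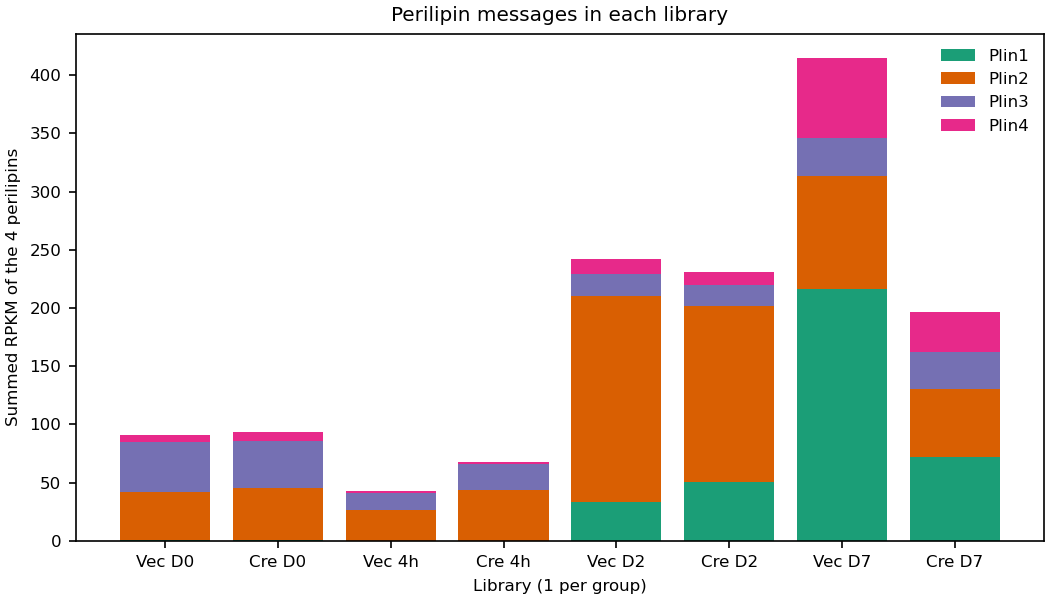
Summed RPKM of the 4 perilipins (vertical axis) in each library (horizontal axis, 1 bar per library, no error drawn), split into Plin1 (green), Plin2 (orange), Plin3 (violet) and Plin4 (pink). Plin2 fills most of both D2 bars, and Plin1 is the largest part of both D7 bars, of which the Vec bar reaches 414.4 and the Cre bar 196.6.

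Cidec, which joins droplets at their contact sites, followed Plin1 in being off at 4h. It had 21 reads in Vec D0, 20 in Cre D0 and 0 in both 4h libraries (a floor of 0.144 RPKM in the Vec library and 0.229 RPKM in the Cre library). Its RPKM was 78.7 in Vec and 40.6 in Cre at D2, and 165.0 and 54.2 at D7. Every D2 and D7 library was far above every earlier one, and Vec was above Cre at both times. D2 exceeded 4h by at least 547.7-fold (Vec) and at least 177.5-fold (Cre; adjusted p = 0.0024 in edgeR). From D0 to D7 the level was 314.3-fold higher in Vec (205.3 to 508.2) and 111.1-fold in Cre (71.8 to 182.2), a fitted rise of 7.69 (adjusted p = 0.0053) that was lost without Vec D0 (0.0843). The change from D2 to D7, of 0.89, did not pass (adjusted p = 0.0864) unless Cre D7 was left out (0.0481).

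The fall of Cidec at 4h passed (adjusted p = 0.0402 in edgeR) and, on reads against the floor, was at least 3.65-fold in Vec and at least 2.13-fold in Cre. The size fitted in edgeR rests on the 0 reads at 4h. With limma on log2(RPKM + 1) the change was -0.59 and did not pass (adjusted p = 0.300). Nor did it pass without Vec D0 (a fitted log2 change of -7.92), Cre D0 (-6.74), Vec 4h (-6.61), Cre 4h (-7.76), Vec D2 (-7.20) or Cre D2 (-7.22). Other genes lost the threshold in these fits as well. Other adipocyte genes with reads at D0 were at 0 in both 4h libraries: Adipoq stood at 2.66 RPKM in Vec D0 and 1.99 in Cre D0, and Cfd 3.83 and 2.88. What lay behind these reads at D0 was not tested. The same step of Plin1, from few reads to 0, did not pass in edgeR (adjusted p = 0.177) but passed with DESeq2 (0.0087), with limma on log2(RPKM + 0.1) (0.0231), and without Vec D7 (0.0160) or Cre D7 (0.0157).

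The lipases rose together by D2. Pnpla2, which starts triglyceride breakdown, stood at 5.50 RPKM in Vec and 5.19 in Cre at D0, 3.51 and 4.20 at 4h, 92.3 and 49.2 at D2, and 210.8 and 70.7 at D7. The 4 libraries before D2 lay between 3.51 and 5.50, and the 4 later ones between 49.2 and 210.8. It rose by 4.00 on the log2 scale from 4h to D2 (SE 0.47, edgeR adjusted p = 0.0044). From D0 to D7 it was 38.3-fold higher in Vec (34.5 to 42.8) and 13.6-fold in Cre (12.2 to 15.2), a fitted rise of 4.67 (SE 0.47, adjusted p = 0.0086), lost without Vec D0 (0.124) or Cre D0 (0.0578). The change from D2 to D7, of 1.06, did not pass (adjusted p = 0.107), but did with DESeq2 (0.0415) and without Cre D7 (0.0404). The transcript with the most reads, used here by rule, is a non-coding RefSeq record of 2717 bases, and a coding record of 2635 bases gave nearly the same RPKM (217.2 in Vec D7 and 72.9 in Cre D7).

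Lipe, the hormone-sensitive lipase, stood at 2.75 RPKM in Vec and 2.41 in Cre at D0, 1.67 and 2.38 at 4h, 104.5 and 69.1 at D2, and 126.8 and 45.3 at D7. It reached nearly its full level by D2 in Vec and its highest level there in Cre. The rise from 4h to D2 was 5.28 (SE 0.49, edgeR adjusted p = 0.0030), and from D2 to D7 the fitted change was 0.04 (adjusted p = 0.951). From D0 to D7 its level was 46.2-fold higher in Vec (40.2 to 53.2) and 18.8-fold in Cre (16.2 to 21.9), a rise of 5.05 (adjusted p = 0.0075), lost without Vec D0 (0.124) or Cre D0 (0.0588).

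Mgll, the monoglyceride lipase, had few reads before D2. Its RPKM was 0.373 in Vec (35 reads) and 0.634 in Cre (61 reads) at D0, 0.736 (36 reads) and 0.423 (13 reads) at 4h, 25.6 and 25.2 at D2, and 50.02 and 19.2 at D7. The genotypes coincided at D2 and stood apart at D7. It rose by 5.33 from 4h to D2 (SE 0.58, edgeR adjusted p = 0.0038). From D0 to D7 its level was 134-fold higher in Vec (96.2 to 192.8) and 30.2-fold in Cre (23.4 to 39.6), a rise of 6.08 (adjusted p = 0.0076), lost without Vec D0 (0.108). One short transcript record of 1204 bases had much lower values (10.6 in Vec D7 and 3.97 in Cre D7) than the chosen record of 3991 bases.

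Summed over the 3 lipases, the RPKM was 8.62 in Vec and 8.24 in Cre at D0, 5.92 and 7.00 at 4h, 222.4 and 143.6 at D2, and 387.7 and 135.1 at D7. Lipe had the largest share at D2, at 47.0% in Vec and 48.2% in Cre, and Pnpla2 at D7, at 54.4% and 52.3%. The shares at D7 were thus close between genotypes while the sums were not.

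Abhd5, the activator of Pnpla2, was already expressed before induction. Its RPKM was 13.9 in Vec and 15.2 in Cre at D0, 19.2 and 14.3 at 4h, 86.8 and 57.1 at D2, and 40.6 and 23.5 at D7. Both D2 libraries were above all others. It rose by 1.96 from 4h to D2 (SE 0.24, edgeR adjusted p = 0.0047) and fell by 1.05 from D2 to D7 (SE 0.23, adjusted p = 0.0259). That fall was lost without Vec D2 (0.146), Cre D2 (0.0610), Vec D7 (0.0539) or Cre D7 (0.113). Its rise over the whole course, of 1.17 (adjusted p = 0.0413), passed without Cre D7 but not when any of the other 7 libraries was left out (adjusted p from 0.0534 without Cre D0 to 0.241 without Vec D0).

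G0s2, the inhibitor of Pnpla2, switched on between 4h and D2. It had 18 reads in Vec D0 and 15 in Cre D0, 0 in Vec 4h and 2 in Cre 4h. Its RPKM was 112.2 in Vec and 131.1 in Cre at D2, and 110.6 and 36.8 at D7. The 2 genotypes were both high at D2, and at D7 the Cre library alone was lower than before. It rose by 9.90 from 4h to D2 (SE 0.93, edgeR adjusted p = 0.0030), where D2 was at least 386.5-fold higher in Vec. The size of that fit rests on the 0 and 2 reads at 4h, and was 14.47 without Cre 4h (adjusted p = 0.0128) and 8.28 without Vec 4h (0.0254). From D0 to D7 its level was 121.7-fold higher in Vec (76.7 to 206) and 49.9-fold in Cre (30.04 to 89.5), a rise of 6.48 (adjusted p = 0.0086), lost without Vec D0 (0.140) or Cre D0 (0.0657). The change from D2 to D7, of -0.76, did not pass (adjusted p = 0.276), but did without Vec D7 (-1.71, adjusted p = 0.0420).

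The balance of regulator and lipase messages shifted over time. For each RPKM of Pnpla2 there was 0.165 of G0s2 in Vec and 0.142 in Cre at D0, 1.22 and 2.67 at D2, and 0.525 and 0.521 at D7. For Abhd5 the same ratio was 2.54 and 2.94 at D0, 5.47 and 3.403 at 4h, 0.941 and 1.16 at D2, and 0.193 and 0.333 at D7. The inhibitor's message thus exceeded that of its target at D2, in Cre by more than in Vec, and the 2 genotypes had nearly equal ratios at D7. The activator's message exceeded that of Pnpla2 at D0 and 4h and was the lesser one at D7. These are ratios of single libraries and carry no test.

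**Figure D3:**
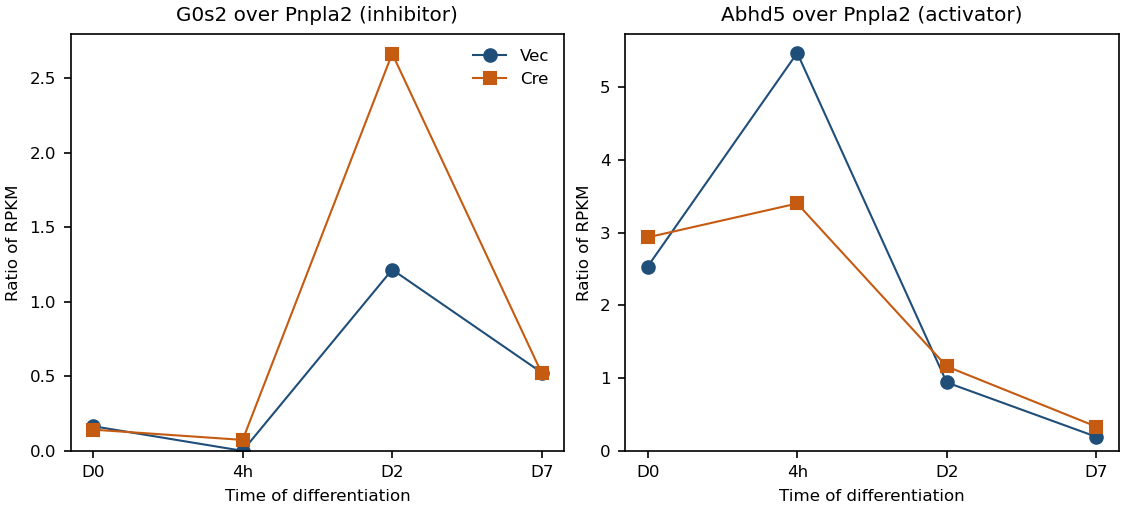
Ratio of RPKM (vertical axes, linear from 0) of G0s2 to Pnpla2 (left) and of Abhd5 to Pnpla2 (right) at D0, 4h, D2 and D7 (horizontal axis, times evenly spaced and not to scale) in Vec (blue circles) and Cre (orange squares), 1 library per point and no error drawn. The G0s2 ratio peaks at D2, at 1.22 in Vec and 2.67 in Cre, and the Abhd5 ratio is lowest at D7, at 0.193 and 0.333.

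Ordered by RPKM, the ranking of the 10 genes turned over. In Vec D0 it ran Plin3, Plin2, Abhd5, Plin4, Pnpla2, Lipe, G0s2, Cidec, Mgll and Plin1, and 5 of the 9 neighbouring pairs had overlapping 95% exact Poisson intervals, among them Plin3 with Plin2. Cre D0 differed in that Plin2 came before Plin3 and Cidec last, with 3 overlapping pairs. At 4h Plin2 led in both genotypes, and 3 pairs overlapped in Vec and 4 in Cre.

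At D2 the order in Vec was Plin2, G0s2, Lipe, Pnpla2, Abhd5, Cidec, Plin1, Mgll, Plin3 and Plin4, with no overlapping neighbours on the transcripts used. Another record of Lipe, of 2779 bases, stood at 119.4 RPKM in Vec D2, above G0s2 at 112.2. Cre D2 began with Plin2, G0s2 and Lipe as well, and Plin1 and Pnpla2 overlapped. At D7 Plin1 and Pnpla2 led in both genotypes and overlapped in both. In Vec D7 Cidec, Lipe, G0s2, Plin2, Plin4, Mgll, Abhd5 and Plin3 followed, each apart from its neighbours, and among all genes Plin1 had rank 98 and Pnpla2 rank 104. In Cre D7 Plin2 followed and overlapped with Cidec, G0s2 overlapped with Plin4, and Mgll came last.

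The comparison of Cre with Vec asks whether loss of the receptor changes these messages. At D7, 6 of the 10 were at least 2-fold lower in Cre by a rule of size (Plin1, Cidec, Pnpla2, Lipe, Mgll and G0s2) and none was higher, where 3.12% of 12480 genes were lower by the same rule. The rule asks for a difference of at least 1 in log2(RPKM + 1), for genes where 1 of the 2 libraries reaches an RPKM of 1, and it is no test, since each group is 1 library. No member met it at D0 (0.275% of 12007 genes lower), at 4h (2.59% of 11897) or at D2 (1.54% of 11918). The median difference in log2(RPKM + 1), Cre minus Vec, was 0.0051 over the 6 members with enough signal at D0, 0.31 over 6 at 4h, -0.22 over 10 at D2 and -1.40 over 10 at D7. Over all genes it was 0.0056, 0.11, -0.044 and 0.026.

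At D7 the differences ran from none to about 3-fold. Cidec was 3.05-fold higher in Vec than in Cre (95% exact interval on reads 2.90 to 3.21), G0s2 3.00-fold (2.75 to 3.28), Plin1 2.98-fold (2.86 to 3.11), Pnpla2 2.98-fold (2.88 to 3.09), Lipe 2.80-fold (2.69 to 2.92) and Mgll 2.61-fold (2.47 to 2.77). Plin4 was 1.99-fold higher in Vec (1.92 to 2.07), Abhd5 1.73-fold (1.62 to 1.84) and Plin2 1.68-fold (1.60 to 1.77). Plin3 was at 1.01-fold (0.938 to 1.096), so its interval included no difference. Plin4 lay just under the 2-fold line, and it passed it when RPKM was rescaled by TMM or by median of ratios.

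At D2 the same genes did not move as a block. Cidec was 1.94-fold higher in Vec (1.83 to 2.05), Pnpla2 1.88-fold (1.80 to 1.95), Abhd5 1.52-fold (1.47 to 1.58) and Lipe 1.51-fold (1.46 to 1.56), and Plin2 and Plin4 1.17-fold each. Plin1 was the reverse, at 1.53-fold higher in Cre (1.44 to 1.63), and G0s2 was 1.17-fold higher in Cre (1.11 to 1.23). Mgll and Plin3 were equal within counting error, at 1.02-fold (0.965 to 1.07) and 1.03-fold (0.942 to 1.12), and the side on which these 2 ratios fell changed with rescaling. So 4 members were already higher in Vec by over 1.5-fold, 1 was higher in Cre by over 1.5-fold, and the other 5 lay between. With a 1.5-fold line in the rule of size, 5.35% of 11918 genes were lower in Cre and 7.76% higher. Lipe and Abhd5 lay under 1.5-fold after rescaling by TMM (1.473 and 1.482) or by median of ratios (1.47 and 1.478).

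At 4h the 3 perilipins with reads were higher in Cre. Plin2 was 1.66-fold higher (1.48 to 1.86), Plin3 1.45-fold (1.26 to 1.68) and Plin4 1.39-fold (1.02 to 1.89), whereas Abhd5 was 1.34-fold higher in Vec (1.18 to 1.53). After TMM rescaling, which moves Vec 4h most, the perilipin ratios were 1.52, 1.33 and 1.275, and that of Abhd5 was 1.46 in Vec. Scaled in the same way, the interval of Plin4 takes in 1. For Pnpla2, Lipe and Mgll the intervals at 4h included no difference, and Plin1 and Cidec had 0 reads. At D0 the intervals of most members included a ratio of 1. The exceptions were Plin4, at 1.29-fold higher in Cre (1.18 to 1.41), Mgll at 1.70-fold (1.104 to 2.65) and Abhd5 at 1.09-fold (1.005 to 1.19). These intervals cover counting error only, and the share of all genes whose intervals include 1 was not counted.

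Over all times together the genotype effect passed for 0 of the 10 in edgeR, where 0.0% of all genes passed. Of the 10 fitted effects, 9 were below 0, but those of Plin1, Plin2, Plin4, Mgll and G0s2 were above 0 (0.053 to 0.696) without Vec D7 or without Cre D7, and that of Plin3 was below 0 (-0.051) without Vec 4h or without Cre 4h. The largest was that of Cidec, at -1.11 (SE 0.27, adjusted p = 0.410), followed by Pnpla2 at -0.67 and G0s2 at -0.58. Cidec and Abhd5 had an unadjusted p under 0.05, as did 1501 of the 12581 genes. DESeq2 passed 4 genes as higher and 15 as lower in Cre, and limma 0, and none of the 10 was among them. A difference that appears at D7 and not earlier counts as error in this model.

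**Figure D4:**
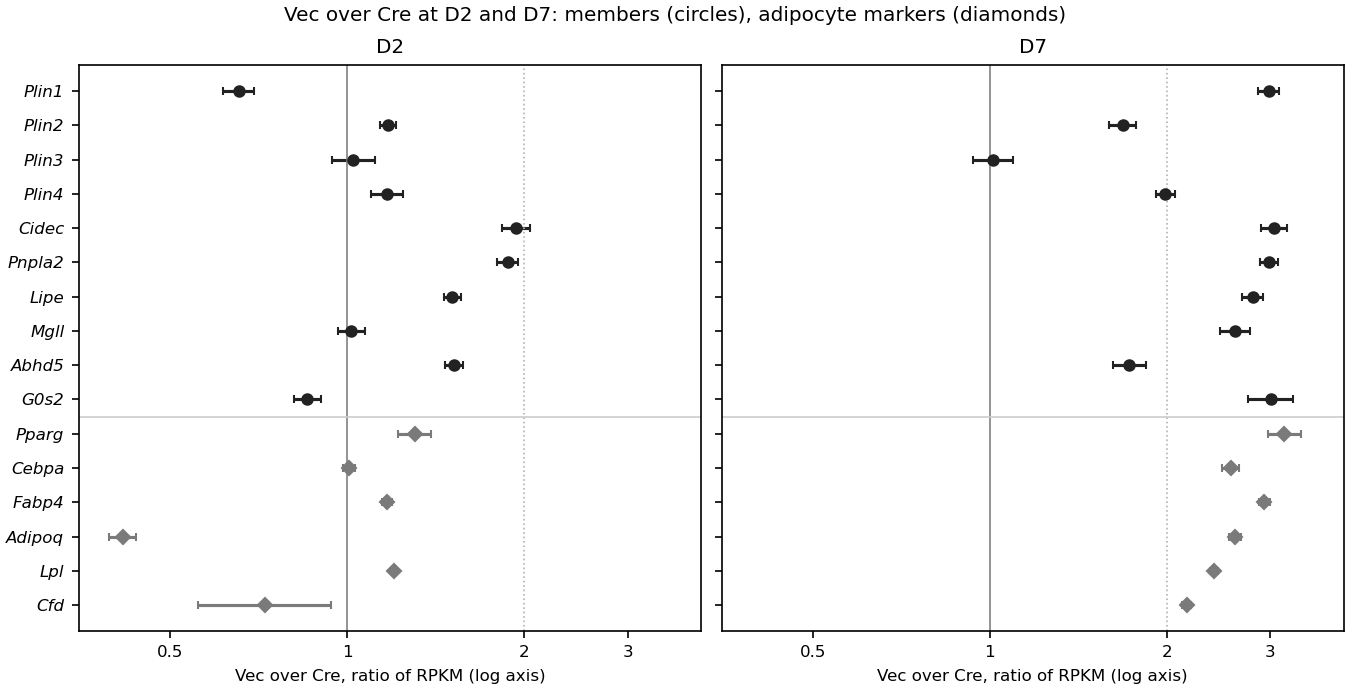
Ratio of RPKM, Vec over Cre (horizontal axes, logarithmic), at D2 (left) and D7 (right) for the 10 genes (black circles) and 6 adipocyte markers (grey diamonds), from 1 library each, with bars for the 95% exact interval on reads, a solid line at 1 and a dotted line at 2. At D2 the ratios lie on both sides of 1, with Plin1 at 0.654 and Adipoq at 0.415, and at D7 the bars of all but Plin3 lie above 1.

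General adipocyte markers moved with the difference at D7. Of the 6, all were higher in Vec than in Cre at D7, from 2.16-fold for Cfd and 2.41-fold for Lpl to 2.93-fold for Fabp4 and 3.17-fold for Pparg. Their sum was 2.52-fold higher in Vec, and the sum of the 5 preadipocyte and fibroblast markers was 1.78-fold higher in Cre. At D2 the adipocyte sum was 1.11-fold higher in Vec and the preadipocyte sum 2.31-fold higher in Cre. Most of the adipocyte sum at D2 was Fabp4 and Lpl, and most of the preadipocyte sum Col1a1 (244.0 in Vec and 661.6 in Cre). Each of the 5 was higher in Cre at D2, from 1.32-fold for Dlk1 to 2.71-fold for Col1a1. At that time Adipoq was 2.41-fold and Cfd 1.38-fold higher in Cre, as Plin1 was at 1.53-fold. Cebpa was equal there at 1.01-fold. In bulk RNA, fewer adipocytes in the culture and less of a message per adipocyte cannot be told apart, and the part of the markers in the result was not tested.

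The step from D2 to D7 was also compared within each genotype, gene by gene. In Vec, Plin1 was 6.54-fold higher at D7 than at D2 (6.20 to 6.89), and in Cre 1.43-fold (1.36 to 1.51). Plin4 was 5.14-fold higher in Vec and 3.02-fold in Cre, Pnpla2 2.28-fold and 1.44-fold, and Cidec 2.10-fold and 1.33-fold. These 4 were higher at D7 in both genotypes and by more in Vec.

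Lipe and Mgll each moved one way in Vec and the other way in Cre. Lipe was 1.21-fold higher at D7 than at D2 in Vec (1.18 to 1.25) and stood at 0.655 of its D2 level in Cre (0.628 to 0.683). Mgll was 1.95-fold higher in Vec (1.85 to 2.05) and at 0.76 of its D2 level in Cre (0.716 to 0.806). G0s2 held its level in Vec, at 0.986 of D2 (0.924 to 1.05, and 1.11 after TMM rescaling), and was at 0.281 in Cre (0.259 to 0.304). Whether these responses differ between genotypes could not be tested with 1 library each.

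The remaining 3 moved in the same direction in both genotypes. Abhd5 at D7 was at 0.468 of its D2 level in Vec and 0.412 in Cre, and Plin2 at 0.55 and 0.384. Plin3 was 1.72-fold higher in Vec and 1.74-fold in Cre. Put as how far the course had come by D2, Plin1 stood at 15.3% of its D7 level in Vec and 69.7% in Cre, Pnpla2 at 43.8% and 69.6%, Lipe at 82.4% and 153%, and Mgll at 51.2% and 132%. In Cre, then, Plin2, Lipe, Mgll, Abhd5 and G0s2 were highest at D2, and in Vec Plin2 and Abhd5 were. G0s2 in Vec was nearly level between D2 and D7, and which of the 2 was higher changed with rescaling. The share of all genes highest at D2 in each genotype was not counted.

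**Figure D5:**
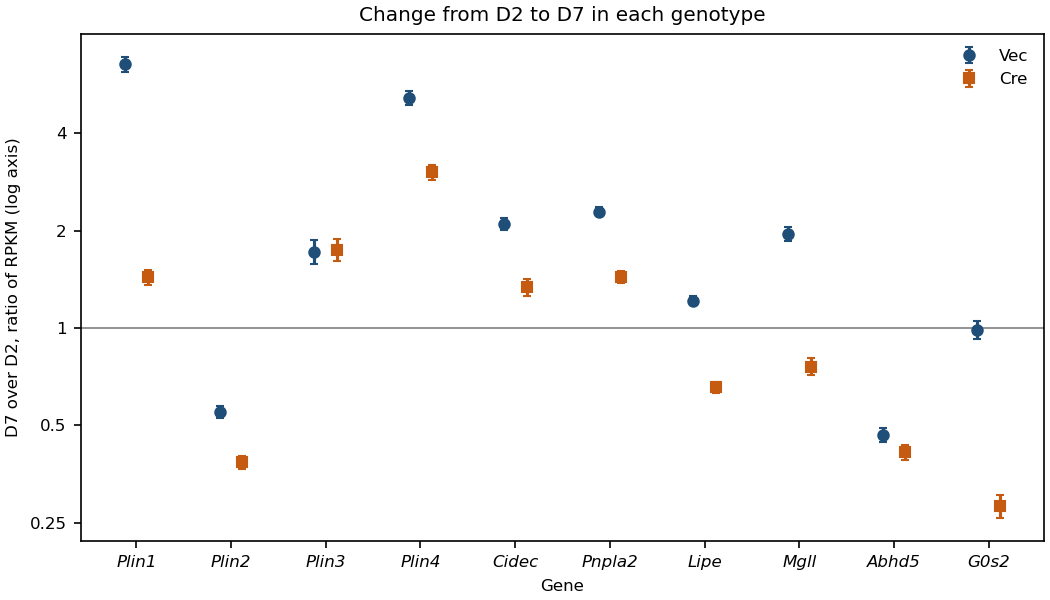
Ratio of RPKM at D7 over D2 (vertical axis, logarithmic) for each gene (horizontal axis) in Vec (blue circles) and Cre (orange squares), 1 library at each time, with bars for the 95% exact interval on reads and a line at 1. Lipe and Mgll lie above 1 in Vec and below 1 in Cre, Plin3 overlaps between genotypes, and Plin1 shows the widest gap, at 6.54 against 1.43.

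Other genes of droplets and lipolysis were followed in 4 lists. Of 18 genes of droplet formation, 15 had enough signal to be tested, and from 4h to D2, 5 rose and 1 fell (15.4% of all genes were higher and 18.0% lower). Fitm2, which partitions newly made fat into droplets, rose by 2.18 on the log2 scale (edgeR adjusted p = 0.0064), with 19.0 RPKM in Vec and 10.4 in Cre at 4h, and 87.7 and 55.9 at D2. Bscl2 (seipin), Cav1, Lpin1 and Aifm2 rose as well, and Hsd17b11 fell. Over the whole course Cidea, Fitm2, Bscl2 and Aifm2 rose and none fell (5.68% of all genes were higher and 2.42% lower). Cavin1, a partner of caveolin at the cell surface, had an RPKM of 223.6 in Vec D0 and 222.7 in Vec D7, and fell to 75.1 in Vec and 100.4 in Cre at 4h (adjusted p = 0.0124).

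At D7, 7 of 16 droplet formation genes were at least 2-fold lower in Cre by the rule of size, and none higher, beside 3.12% and 1.39% of all genes. Cav1, the main protein of caveolae, stood at 269.2 in Vec and 128.4 in Cre, Aifm2 at 55.3 and 18.6, Lpin1 at 36.0 and 15.8, Bscl2 at 36.2 and 16.9, and Fitm2 at 45.7 and 19.2. Plin5, the perilipin of oxidative tissues, reached 5.29 in Vec D7 and 0.67 in Cre D7, at 160 and 33 reads, and was too low elsewhere to be tested. Cidea, a relative of Cidec typical of brown fat, was at 7.36 and 1.29. Earlier, Lpin1 was lower in Cre at 4h (10.6 against 4.18) and Aifm2 at D2 (55.8 against 23.0).

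Of 12 other hydrolases, 11 were tested, and from 4h to D2 4 rose and 1 fell, beside 15.4% and 18.0% of all genes. Lpl, which frees fatty acids from circulating lipoproteins, rose by 3.75 (edgeR adjusted p = 0.0035), and it was 2.41-fold higher in Vec at D7 (708 against 294). Pnpla3, a close relative of Pnpla2, was late: its RPKM was 0.872 in Vec and 0.981 in Cre at D2, and 40.2 and 13.3 at D7, a rise of 4.79 (adjusted p = 0.0050). These 2 of 11 were 2-fold lower in Cre at D7, beside 3.12% of all genes. Lipa, the lysosomal lipase, did not pass in any of the time comparisons, and its RPKM lay between 26.1 and 59.9 in all libraries.

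Of 20 genes of hormonal control, 19 were tested, with 7 that rose and 3 that fell from 4h to D2, and 7 that rose and 0 that fell over the whole course. Of all genes, 15.4% were higher and 18.0% lower in the first comparison, and 5.68% and 2.42% in the second. Adrb3, the adrenergic receptor of fat cells, was late: it stood at 0.682 in Vec D2, 2.50 in Cre D2, 52.8 in Vec D7 and 16.8 in Cre D7, and rose by 4.56 from D2 to D7 (edgeR adjusted p = 0.0190). Prkar2b, a regulatory subunit of protein kinase A, rose by 3.77 from 4h to D2 (adjusted p = 0.0024), to 140.8 in Vec and 125.1 in Cre. Pde3b, through which insulin lowers cAMP, rose by 1.86 in the first 4 hours (adjusted p = 0.0118), to 38.6 in Vec and 19.4 in Cre. Gnas and Prkar1a, among the 3 most abundant of the list, fell from 4h to D2 by 0.86 and 0.59 (adjusted p = 0.0074 and 0.0230).

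By size, 5 of 19 genes of hormonal control were 2-fold lower in Cre at D7 (3.12% of all genes): Adrb3, Pde3b, Adora1, Hcar1 and Npr1. Pde3b stood at 52.8 in Vec and 24.5 in Cre, Adora1 at 7.70 and 1.67, Hcar1 at 5.82 and 1.56, and Npr1, the receptor for atrial natriuretic peptide, at 6.71 and 2.13. At D2, Npr1 was lower in Cre (7.52 against 3.24), and Adrb3 and Prkg1 were higher in Cre (Prkg1 0.502 against 2.17). Adrb3 thus changed sides between D2 and D7, as Plin1 did.

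Of 11 genes that handle the products of lipolysis, 10 were tested, and from 4h to D2 8 rose and 1 fell, beside 15.4% and 18.0% of all genes. Fabp4, the main fatty acid carrier of adipocytes, rose by 6.01 (edgeR adjusted p = 0.0024), and Acsl1, which activates fatty acids, by 5.49 (0.0031), to 246.3 in Vec and 333.8 in Cre at D2. Fabp5 rose by 4.86 and then fell by 3.12 from D2 to D7 (adjusted p = 0.0044), from 394.1 to 53.7 in Vec. Dgat1 was the member that rose in the first 4 hours, by 2.86 (adjusted p = 0.0094), with 10.3 RPKM at D0 and 73.3 at 4h in Vec, and 11.0 and 72.4 in Cre. At D7, 7 of 10 were 2-fold lower in Cre (3.12% of all genes): Fabp4 (2304 in Vec against 786 in Cre), Fabp5 (53.7 against 24.7), Aqp7 (17.2 against 6.06), Acsl1 (138.8 against 52.7), Cd36 (99.0 against 31.6), Dgat1 (91.2 against 41.5) and Dgat2 (82.2 against 25.6). The genotype effect over all times passed for no gene of the 4 lists.

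Genes with the most similar courses were sought for Plin1, Plin2, Pnpla2 and G0s2 by Pearson's r of log2(RPKM + 1) over the 8 libraries, in 7229 genes that reach an RPKM of 10 somewhere. The libraries share a single time course, so these values are a description. For Plin1 the closest were Lgals12 (0.993), Klb (0.991) and Adipoq (0.990). For Plin2 they were Tmem203 (0.990), Gphn (0.987) and Stx16 (0.986), whose levels moved over a smaller range than that of Plin2. Pnpla2 was closest to Cidec (0.996), Gnb5 (0.994) and Pex11a (0.994), and G0s2 to Plaat3 (0.994), Trarg1 (0.992) and Pcx (0.992). Among the 10 genes, r with Plin1 was 0.987 for Cidec, 0.985 for Mgll and Pnpla2, 0.970 for Lipe, 0.956 for G0s2, 0.906 for Plin4, 0.768 for Plin2, 0.749 for Abhd5 and -0.034 for Plin3.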

How the data were processed

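RNA was extracted with Trizol and mRNA purified on Dynabeads, per the labels' protocols. For each of the 8 RNA libraries (7.7 to 28.9 M reads) the deposited table lists, per the file headers, the authors' read count and RPKM (the count scaled to transcript length and library total) of 29082 RefSeq transcripts. The submitters' processing notes name CASAVA 1.8.2, SICER and assembly mm9; for aligner and counter, the sources used here give no name. A further 22 ChIP samples were not analysed here.

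Transcripts were named through a RefSeq table of GRCm38.p6 (97.8% matched), and each gene was represented by its most-read transcript, summed over libraries. Deposited counts were fitted with edgeR 4.0.16 in R 4.3.3 (TMM scaling, quasi-likelihood test, additive model of time and genotype, 3 residual degrees of freedom) on the 12581 genes that reach an RPKM of 1 in 2 or more libraries, with Benjamini-Hochberg adjustment at 0.05; the SE is the log2 change divided by the root of the F statistic. The script was tested on simulated data. Genotypes were compared within a time by size, on log2(RPKM + 1), without a test. Intervals are 95% exact Poisson (levels) or exact conditional binomial (ratios), 3 reads per library served as the floor for 0 reads, and all cover counting error only. Scaling, filter, pseudocount, transcript choice, DESeq2 1.42.0, limma 3.58.1 and leaving out each library were tried as alternatives.

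All members were named. Of the pathway lists, genes were named that passed for genotype or by size, with the 3 highest in RPKM and, beyond this rule, some genes that passed a time test. The result of 1 listed gene is not reported here. The members, lists and motifs were chosen with earlier results of these data known. Promoter sequences are RefSeq's.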

Additional observations from a re-analysis of the deposited data

Results flagged for a closer look

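The responses of Mgll, Lipe and Plin3 pointed in opposite directions in Vec and Cre, with 95% intervals on reads that left out a ratio of 1 in both. Those intervals cover counting error only, and the share of all genes that do the same was not counted. The difference was not tested because each group is 1 library. From D2 to D7, Mgll was 1.95-fold higher in Vec and at 0.76 of its D2 level in Cre, a difference in the change of log2(RPKM + 1), Cre minus Vec, of -1.32. Lipe was 1.21-fold higher in Vec and at 0.655 in Cre, a difference of -0.877. From 4h to D2, Plin3 was 1.22-fold higher in Vec (95% exact interval on reads 1.09 to 1.37) and at 0.819 in Cre (0.727 to 0.926), a difference of -0.545. After TMM rescaling, which moves Vec 4h most, the Plin3 ratio was 1.06 in Vec and 0.795 in Cre, and those of Lipe and Mgll kept their sides of 1 (1.36 and 0.695 for Lipe, 2.19 and 0.806 for Mgll). From D0 to 4h, Abhd5 (1.38-fold in Vec and 0.938 in Cre) and Mgll (1.97-fold and 0.667) also lay on opposite sides, but their intervals in Cre included 1 (0.83 to 1.06 and 0.336 to 1.23).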

How the results depend on the processing

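With 1 library per group, the spread between cultures was not measured, so its part in the precision cannot be set beside that of depth. Reads were fewest for Plin1, Cidec, G0s2 and Mgll before D2 and Lipe at 4h, at no more than 66. Plin4 and Pnpla2 at 4h had at most 117. Of 900 single gene results under an alternative, 809 kept their direction and side of the threshold, 42 lost the threshold, 20 gained it and 29 changed sign, and 0 of those 29 passed in either fit. Outside the fits that left out a library, the sign changed for Lipe from D2 to D7 (-0.017 with no filter, -0.16 with limma at a pseudocount of 1 and -0.17 at 0.1) and, for genotype, for Plin1 (0.0097 with DESeq2) and G0s2 (0.10 with limma at 0.1). With 1 library left out each time, the log2 change from D0 to 4h ran from -0.72 to 0.19 for Plin2, -0.93 to 0.090 for Pnpla2, -0.88 to 0.30 for Lipe, -0.44 to 1.06 for Mgll and -0.11 to 0.66 for Abhd5. From 4h to D2 it ran from -0.36 to 0.10 for Plin3, and from D2 to D7 from -0.71 to 0.62 for Lipe, -0.33 to 1.16 for Mgll and -1.71 to 0.12 for G0s2. The genotype effect ran from -0.945 to 0.70 for Plin1, -0.31 to 0.15 for Plin2, -0.051 to 0.11 for Plin3, -0.35 to 0.15 for Plin4, -0.74 to 0.053 for Mgll and -1.23 to 0.19 for G0s2. Where a time lost a library, its lone library was assumed to vary like the others. Fewer of all genes then passed for the steps to and from that time, between neighbouring times. Other genes thus lost the threshold in such fits as well, and why a member lost it was not tested. From 4h to D2 no member that passed with all libraries was lost. For genotype no member passed with a library left out, nor did any other gene. From D2 to D7 DESeq2 passed 5, with 3 higher and 2 lower, where 2220 of 12581 genes passed as higher and 1338 as lower. With a 1.5-fold line in place of 2-fold, 1 member was past it at 4h (Plin2, higher in Cre), 5 at D2 and 9 at D7, where 6.71% of all genes were higher and 5.46% lower at 4h, 7.76% and 5.35% at D2, and 7.24% and 9.0% at D7. The members past 2-fold at D7 were 6, or 7 with TMM or median-of-ratios rescaling. The causes of these changes were not tested.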
